A study of Mus musculus with 4 samples.

Results

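Open chromatin that was detected in both samples of an early thymocyte stage, but in only 1 of 2 samples of the next stage, makes up 1577 of the 107607 open regions of 4 thymocyte peak lists (1.47%). A region was built by merging all peaks, on chromosomes 1 to 19 and X, that shared at least 1 bp. A region was kept when both double-negative (DN) lists and exactly 1 of the 2 double-positive (DP) lists held a peak in it. These regions are called part-shared here. Of them, 424 were held by DP 1 (DN/DP 1 regions, 0.394% of all regions) and 1153 by DP 2 (DN/DP 2 regions, 1.07%). The data are ATAC-seq peak lists, in which a transposase marks accessible DNA, labelled as nucleosome-free chromatin, of wild-type thymus cells sorted straight from C57BL/6J mice, 5 to 7 weeks old. The 2 DP samples were CD4+CD8+ T cells, and the 2 DN samples were CD4-CD8- T cells gated as CD25+ and CD44-/+. Both groups thus share strain, genotype, tissue and age, and the labels do not tell whether the samples within a group came from different mice.

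DN thymocytes that carry CD25 become committed to the T lineage during this stage, and assemble the T cell receptor beta chain gene, Tcrb, mainly once they have lost CD44. Cells with a working beta chain divide, become DP cells and then assemble the alpha chain gene, Tcra, while enhancers and promoters of the earlier stage lose or keep their accessibility. A peak list records such a change only as presence or absence of a peak.

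The sequences below lie inside part-shared regions and are shown because a peak covers a named control element or transcript. They come from RefSeq on GRCm38.p6, the build also known as mm10, and run 5′ to 3′. The first is the mature microRNA miR-155-5p, a regulator of immune cells, whose hairpin lay wholly inside a DN/DP 2 region, with its seed (bases 2 to 8) in capitals.
mmu-miR-155-5p (chr16:84714143-84714165, plus strand): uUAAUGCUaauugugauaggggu
The promoters below reach from 250 bases before to 50 bases after the start of transcription, and capitals mark matches to the 11 motifs described with the promoter results. Il7r encodes the interleukin-7 receptor alpha chain, the survival receptor of early thymocytes, and Cebpa a transcription factor of myeloid cells. Both were covered by DN/DP 1 regions.
Il7r (chr15:9529827-9530126, minus strand): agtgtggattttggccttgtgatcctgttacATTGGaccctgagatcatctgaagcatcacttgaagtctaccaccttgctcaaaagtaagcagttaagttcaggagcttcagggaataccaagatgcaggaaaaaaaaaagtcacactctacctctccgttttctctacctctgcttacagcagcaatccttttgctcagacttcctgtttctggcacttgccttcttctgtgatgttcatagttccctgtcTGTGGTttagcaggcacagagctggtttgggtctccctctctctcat
Cebpa (chr7:35119043-35119342, plus strand): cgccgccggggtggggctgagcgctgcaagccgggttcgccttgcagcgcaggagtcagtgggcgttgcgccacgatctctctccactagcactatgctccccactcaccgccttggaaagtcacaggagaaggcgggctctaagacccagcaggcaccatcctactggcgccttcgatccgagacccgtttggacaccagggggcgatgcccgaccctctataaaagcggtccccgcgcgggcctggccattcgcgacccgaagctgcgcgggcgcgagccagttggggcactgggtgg
Ube2ql1, a ubiquitin-conjugating enzyme of the E2Q family, and Epha7, an ephrin receptor tyrosine kinase, were among the first 4 promoters by peak rank in DN/DP 1 regions. Zfp976, a zinc finger gene, and B3galt1, a galactosyltransferase, held that place in DN/DP 2 regions. The other 4 promoters chosen by rank were Gm29985 and Gm41538 in DN/DP 1 regions and Gucy1b1 and Pclo in DN/DP 2 regions.
Ube2ql1 (chr13:69739848-69740147, minus strand): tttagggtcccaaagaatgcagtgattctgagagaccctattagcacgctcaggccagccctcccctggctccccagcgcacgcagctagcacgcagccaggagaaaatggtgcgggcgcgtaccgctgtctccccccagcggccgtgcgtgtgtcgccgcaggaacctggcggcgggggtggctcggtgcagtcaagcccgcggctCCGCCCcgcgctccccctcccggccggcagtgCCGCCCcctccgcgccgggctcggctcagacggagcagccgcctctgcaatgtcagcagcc
Epha7 (chr4:28812895-28813194, plus strand): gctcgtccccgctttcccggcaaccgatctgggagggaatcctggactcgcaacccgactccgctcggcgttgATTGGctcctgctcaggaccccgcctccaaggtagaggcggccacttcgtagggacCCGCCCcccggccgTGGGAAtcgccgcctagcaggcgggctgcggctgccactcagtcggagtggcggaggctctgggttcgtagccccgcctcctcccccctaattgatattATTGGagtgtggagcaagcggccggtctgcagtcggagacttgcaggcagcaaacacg
Zfp976 (chr7:42642555-42642854, minus strand): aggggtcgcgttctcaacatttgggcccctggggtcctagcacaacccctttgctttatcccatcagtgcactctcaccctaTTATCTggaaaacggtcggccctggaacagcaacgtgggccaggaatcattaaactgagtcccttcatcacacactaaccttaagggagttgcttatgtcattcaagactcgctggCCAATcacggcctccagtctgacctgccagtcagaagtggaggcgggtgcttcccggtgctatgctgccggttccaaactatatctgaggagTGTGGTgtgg
B3galt1 (chr2:67565439-67565738, plus strand): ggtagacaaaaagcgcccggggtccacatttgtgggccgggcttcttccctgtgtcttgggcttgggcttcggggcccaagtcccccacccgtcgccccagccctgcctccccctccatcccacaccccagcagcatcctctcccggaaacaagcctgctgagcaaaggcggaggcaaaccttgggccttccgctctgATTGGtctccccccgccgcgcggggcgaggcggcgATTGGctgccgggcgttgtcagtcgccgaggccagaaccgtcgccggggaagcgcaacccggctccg

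On the chromosomes used, DP 1 and DP 2 held 39696 and 70365 peaks, against 38794 and 33118 peaks in DN 1 and DN 2. Read numbers are not part of the lists. The depth is therefore unknown, and closed chromatin and too few reads cannot be told apart where a peak is missing. Peaks assigned to Cd8a, the CD8 alpha chain, numbered 5 and 6 in the DP lists and 0 and 0 in the DN lists. Il2ra, which encodes the CD25 of the DN gate, had 9 and 9 peaks in the DP lists and 8 and 2 in the DN lists. Its number of peaks thus did not follow the gate. How often other genes have more peaks in both DP lists than in both DN lists is not given here. Cd3e, a T cell receptor complex chain, had 5 and 2 peaks in the DP lists and 1 and 1 in the DN lists. No difference below carries a p-value: peak presence chose the regions, regions are not replicates, and over the 3 ways of splitting 4 lists into pairs an exact permutation test cannot go below 0.333.

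Part-shared regions were a minority among the regions that both DN lists held. There were 12231 such regions, of which 12.9% were part-shared (3.47% with DP 1 and 9.43% with DP 2), 65.0% were in all 4 lists and 22.1% were in neither DP list (DN-only regions). The mirror pattern, both DP lists with a single DN list, was larger, with 5249 regions that held DN 1 and 964 that held DN 2. DN/DP 2 regions outnumbered DN/DP 1 regions 2.72 times, and DP 2 is the longer of the DP lists. With each list cut to the 33118 best-ranked peaks the numbers were 548 DN/DP 1 and 800 DN/DP 2 regions, a ratio of 1.46. With the top 50% of each list they were 153 and 977, a ratio of 6.39. The counts of the 2 patterns and their ratio thus changed when the lists were cut. The part of list length or read depth in them was not tested.

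The part-shared fraction differed by position in the genome. Of the 4497 regions of both DN lists whose midpoint lay within 1000 bp of an end of a protein-coding gene, 4.31% were part-shared and 91.3% were in all 4 lists. Inside genes 17.8% of 3875 regions were part-shared, and between genes 17.98% of 3859. Gene ends were lowest for each DP list by itself: 1.25%, 4.65% and 4.87% held DP 1, and 3.07%, 13.1% and 13.1% held DP 2, at gene ends, inside genes and between genes.

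**Figure D1:**
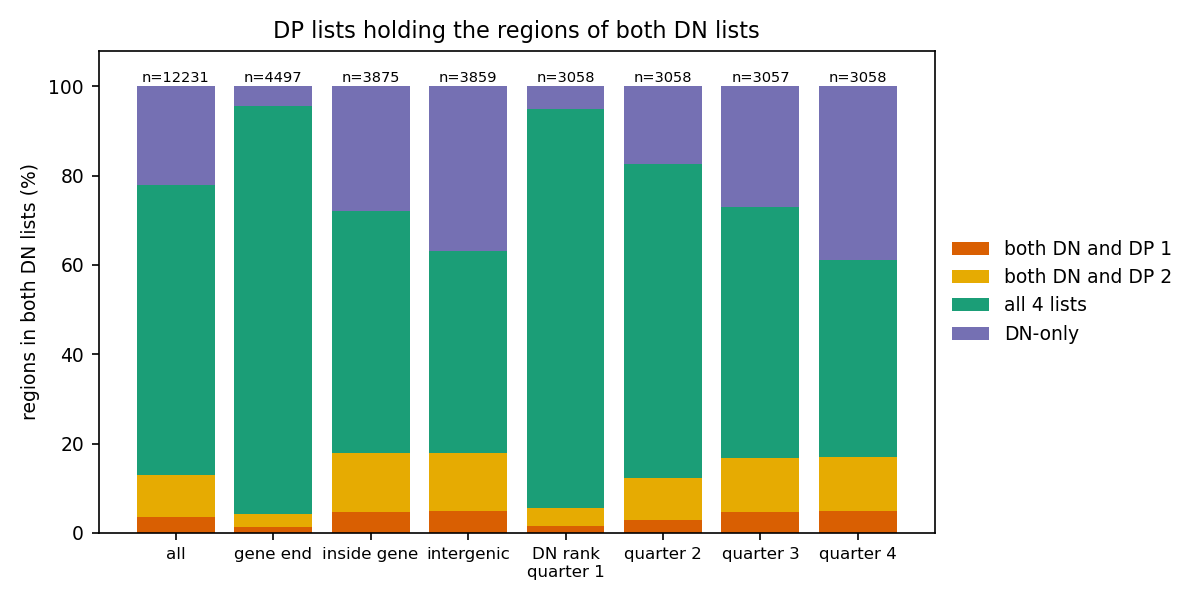
Shares (%, y axis) of the regions held by both DN lists that also had DP 1 (orange), DP 2 (yellow), both DP lists (green) or neither (purple), for all regions, by position, and in 4 equal groups by mean DN rank. Part-shared regions make up 4.31% at gene ends and 17.98% between genes, and 5.46% in the best-ranked group and 17.0% in the last.

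Seen from the part-shared regions, 194 of 1577 lay at a gene end (12.3%), 689 inside a gene (43.7%) and 694 between genes (44.0%). DN/DP 1 and DN/DP 2 regions were alike in this, with 13.2% and 11.97% at gene ends. Regions in all 4 lists had 51.6% at gene ends, DN-only regions 7.33% and all regions together 11.4%. The median distance to the nearest gene end was 23764 bp for DN/DP 1 and 27063 bp for DN/DP 2 regions, against 764 bp for regions in all 4 lists and 45069 bp for DN-only regions. Over all regions the median was 54650 bp. Part-shared regions therefore lay between the fully shared and the DN-only regions by position, and both patterns stood close together. The mirror regions of both DP lists and a single DN list had 38.9% (with DN 1) and 25.2% (with DN 2) at gene ends. Their median distances were 3702 and 11236 bp. Regions of both DP lists alone had 26.4% and 8771 bp. The mirror regions with DN 1 thus lay between these and the fully shared regions, and those with DN 2 did not.

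The authors' p-values, used only as ranks within a list, describe how strong the peaks of part-shared regions were. The rule itself favours weak peaks in the DP list, since the other DP list had to lack the region. The percentile runs from 0 for the best to 100 for the last peak of a list. In DN/DP 1 regions the best peak had a median percentile of 64.0 in DP 1, against 29.8 in DN 1 and 24.5 in DN 2. In DN/DP 2 regions it was 40.1 in DP 2, against 29.8 in DN 1 and 24.5 in DN 2. Of the DN/DP 1 regions, 28.1% had the largest p-value of the DP 1 list, and 23.1% of the DN/DP 2 regions had the largest of DP 2. None of the part-shared regions reached the smallest p-value in its DP list, whereas 28.2% and 34.1% of regions in all 4 lists did so in DP 1 and DP 2. The mirror regions had their lower ranks in the DN list: those of both DP lists and DN 1 had medians of 28.4 in DP 1 and 15.75 in DP 2, against 35.4 in DN 1. Those of both DP lists and DN 2 had 37.1 and 19.9, against 46.3 in DN 2. Lists differ in length and p-values are heavily tied, so percentiles of different lists are only roughly comparable.

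**Figure D2:**
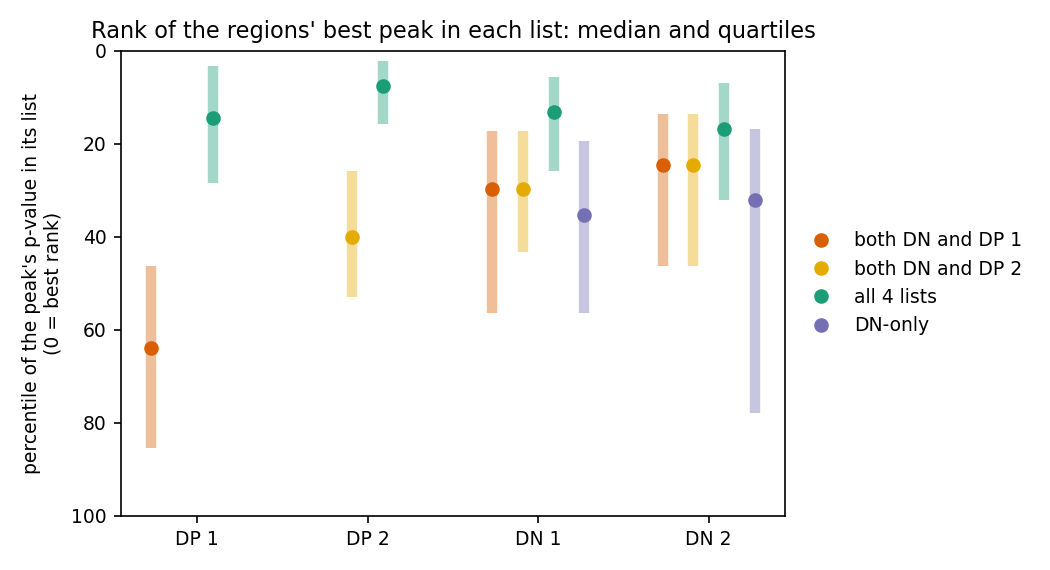
Median (point) and quartiles (bar) of the percentile of each region's best peak in every list that holds it (y axis, 0 is the best rank), by class of region. In the DN lists the part-shared regions (medians 29.8 and 24.5) sit between regions in all 4 lists (13.1 and 16.7) and DN-only regions (35.4 and 32.1).

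Gene ends also had the lowest part-shared fraction within each of 4 broad groups by DN rank. The regions of both DN lists were split into 4 equal groups by their mean DN percentile. The groups ran from 1.44 to 10.94, to 23.22, to 44.1 and to 80.1. Ranks varied within a group and DP ranks were not grouped, so the part of peak strength in the position pattern was not tested. In the best-ranked group 1.70% of the 1882 gene-end regions were part-shared, against 9.65% inside genes and 13.6% between genes. In the last group the shares were 8.36%, 20.2% and 18.7%, so regions inside genes and between genes changed order while gene ends stayed lowest. Seen the other way, 19.2% of the 167 part-shared regions of the best-ranked group lay at gene ends, against 67.1% of regions in all 4 lists and 8.44% of DN-only regions. In the last group this was 11.0% of 519 part-shared regions, 40.7% of regions in all 4 lists and 6.38% of DN-only regions. Part-shared regions made up 5.46%, 12.3%, 16.8% and 17.0% of the 4 groups from best to last.

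The nearest peak of the DP list that lacked the region lay at a median of 9825 bp for DN/DP 1 and 22550 bp for DN/DP 2 regions. DN-only regions showed a like gap, with medians of 12500 bp to a DP 2 peak and 31550 bp to a DP 1 peak, and DP 2 is the denser list. Just outside the rule, 6 DN/DP 1 and 2 DN/DP 2 regions touched a peak of the lacking list without sharing a base, and 22 (5.19%) and 23 (1.99%) had such a peak within 250 bp. Just inside it, 19 and 45 regions were joined by a chain of peaks with no position common to the 3 lists. Elsewhere the peaks lay over each other, with a median of 350 bp common to the 3 lists in both patterns. The midpoint of the DP peak was within 100 bp of the mean DN midpoint in 71.0% of DN/DP 1 and 74.0% of DN/DP 2 regions, and the midpoints of the DN peaks were within 100 bp of each other in 82.3% and 81.8%. The DP peaks were narrower, with medians of 400 and 450 bp in DP 1 and DP 2, against 550 bp in DN 1 and 500 bp in DN 2. The rule chose these DP peaks, and peak widths per list were not compared with other classes. The difference therefore describes the chosen regions only.

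**Figure D3:**
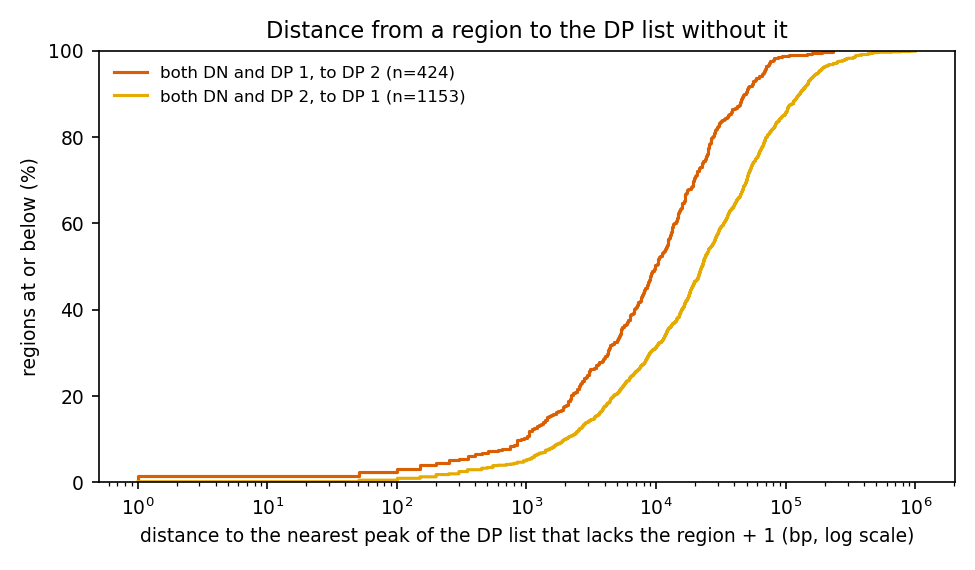
Cumulative share (%, y axis) of DN/DP 1 regions (orange) and DN/DP 2 regions (yellow) by the distance to the nearest peak of the DP list that lacks them (x axis, bp plus 1, log scale). The medians are 9825 bp to a DP 2 peak and 22550 bp to a DP 1 peak.

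Extremes of this distance show both kinds of case. A DN/DP 2 region at an end of Gucy1b1, the beta subunit of soluble guanylate cyclase (chromosome 3, 82074151 to 82075050), had the smallest p-value, 1e-12, in both DN lists and 6.57e-05 in DP 2, and a DP 1 peak lay 50 bp away. A DN/DP 1 region 525 bp from an end of Ppp4r3b, a regulatory subunit of protein phosphatase PP4 (chromosome 11, 29173201 to 29173800), touched a DP 2 peak. At the other end, a DN/DP 2 region on chromosome X (147608551 to 147609100), whose nearest gene was Lrch2, was 1008750 bp from any DP 1 peak. The DN/DP 1 region farthest from DP 2 (230500 bp) lay on chromosome 15, 60465 bp from Marchf11.

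Promoter sequence in the part-shared regions was poorer in CpG than in regions of all 4 lists. Of the 1577 regions, 162 (10.3%) overlapped a RefSeq promoter window, which is near the 9.05% of all regions. The share was 47.9% for regions in all 4 lists and 5.11% for DN-only regions. It was 35.7% and 23.1% for regions of both DP lists with DN 1 and with DN 2, and 22.0% for both DP lists alone. The 181 windows they overlapped had a median of 13 CpGs and 58.0% GC per 300 bases, against 22 CpGs and 62.0% in regions of all 4 lists, 11 and 56.0% in DN-only regions, and 7 and 53.0% over all 32619 windows. DN/DP 1 windows had a median of 11.5 and DN/DP 2 windows of 14 CpGs, with quartiles of 7.25 to 26 and 8 to 24.5. The spread within each pattern was thus far wider than the difference between them.

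Motif matches were counted by their letters on both strands. For the E-box the letters were CAGCTG, for the RUNX factors TGTGGT, and for the ETS factors CCGGAAGT. The GATA factors were searched by AGATAA, the TCF/LEF factors by CTTTGA and the SP/KLF factors by GGGCGG. The others were CCAAT as its own box, TGGGAA for the core shared by RBPJ and Ikaros, TGACGTCA for the cAMP response element, AAGATGGC for YY1 and GTTGCCA for RFX. Matches of different motifs may overlap. SP/KLF was in 52.5% of the windows of part-shared regions, 69.4% of those in all 4 lists, 43.6% of DN-only windows and 35.9% of all windows. The ETS motif was in 1.66% (3 windows), against 9.61% in regions of all 4 lists, 0.671% in DN-only regions and 3.91% of all windows. RUNX was in 13.3%, 11.3%, 12.1% and 16.6% in the same order, and RBPJ and Ikaros letters in 24.9%, 21.6%, 22.1% and 25.4%. The remaining motifs were held by 1.10% (YY1) to 38.7% (CCAAT box) of the windows of part-shared regions. A match describes these letters only.

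**Figure D4:**
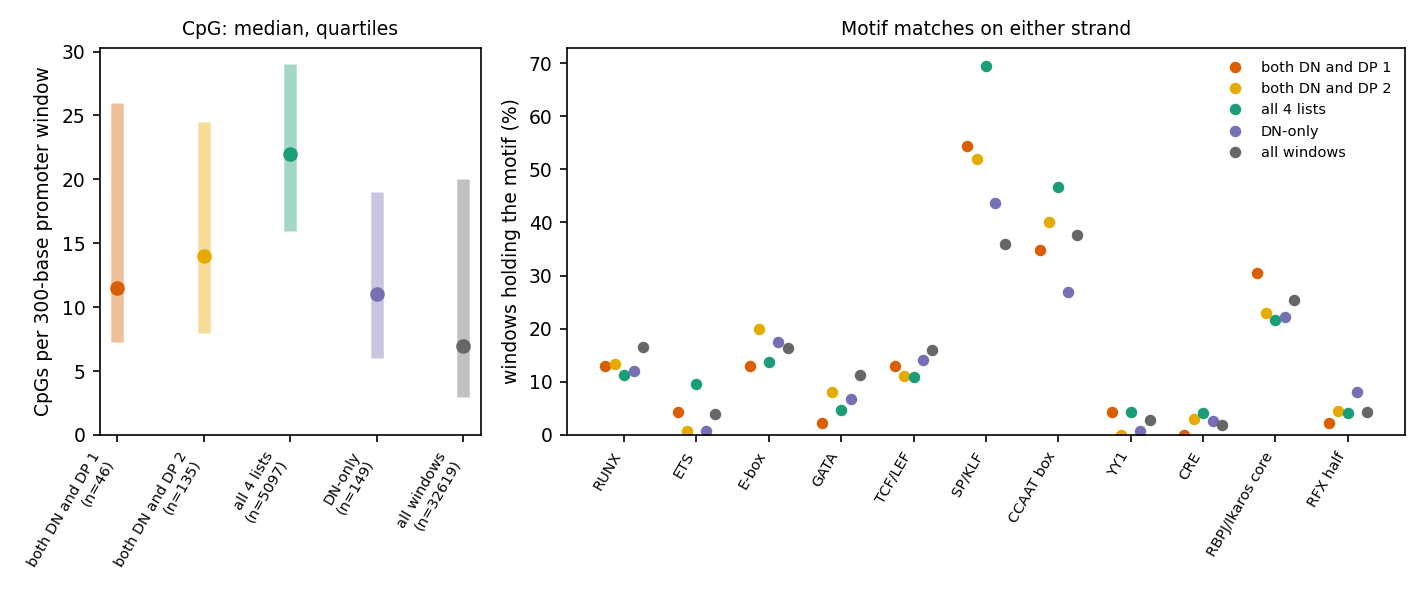
Left, CpGs per promoter window (y axis; point, median; bar, quartiles) for windows overlapped by each class of region and for all windows. Right, share of windows (%, y axis) holding each motif on either strand. SP/KLF is in 54.3% and 51.9% of the DN/DP 1 and DN/DP 2 windows, below the 69.4% of regions in all 4 lists.

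In the printed promoters the CpG content ranged widely. The Il7r promoter held 1 CpG and 45.7% GC, with a RUNX match and a CCAAT box match, and that of Zfp976 held 10 CpGs, while those of Cebpa, Ube2ql1, Epha7 and B3galt1 held 29, 30, 27 and 26. The Il7r region (chromosome 15, 9529551 to 9530150) had p-values of 4.42e-05 in DP 1, 8.05e-05 in DN 1 and 6.55e-05 in DN 2, and the nearest DP 2 peak was 44500 bp away. The Cebpa region (chromosome 7, 35118851 to 35119450) had 0.000144 in DP 1, 8.05e-05 in DN 1 and 6.77e-05 in DN 2. The Epha7 region (chromosome 4, 28812601 to 28813500) had the smallest p-value, 1e-12, in DN 1 and DN 2, and 0.000144 in DP 1. B3galt1 (chromosome 2, 67565251 to 67566050) had 4.94e-05 in DP 2, 1e-12 in DN 1 and 1.13e-08 in DN 2, with no DP 1 peak within 144050 bp. Epha7 and B3galt1 thus had the smallest p-value of a DN list and lacked a peak in a DP list.

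The microRNA region (chromosome 16, 84713751 to 84714450) was the only part-shared region over a hairpin of the RefSeq miRNA table. It held 1 peak in each of DP 2, DN 1 and DN 2, with p-values of 6.57e-05, 1.02e-05 and 4.6e-05, and DP 1 had a peak 100 bp away. How many regions of other classes lay over a hairpin is not given here, so this single case does not set part-shared regions apart.

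Among the antigen receptor loci, part-shared regions overlapped segments only at Tcrb. Of all part-shared regions 5 overlapped an annotated receptor segment, and all 5 lay over V segments of Tcrb, which DN cells join to make the beta chain. DN/DP 1 regions covered Trbv1 (chromosome 6, 40890451 to 40891550) and Trbv5 (41062601 to 41063200). DN/DP 2 regions covered Trbv3 (41048551 to 41049100), Trbv16 (41151851 to 41152550) and Trbv23 (41215801 to 41216350). At Trbv16 the p-values were 0.00039 in DP 2, 2.44e-05 in DN 1 and 0.000269 in DN 2, and the nearest DP 1 peak was 33050 bp away. At Trbv1 they were 6.53e-05 in DP 1, 4.14e-05 in DN 1 and 0.00054 in DN 2, and DP 2 had a peak 1900 bp away. Trbv5 was also covered by a separate DN-only region. The Tcrb V part also held 3 regions in all 4 lists and 5 DN-only regions, while several other receptor loci had few or no regions in both DN lists.

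Counted by list, DP 1 and DP 2 had a peak over 3 and 8 of the 34 V segments upstream of the D segments, against 13 and 9 in DN 1 and DN 2. DP 2 and DN 2 thus differed by a single segment. The lists differ in length, and how often other loci have lower counts in both DP lists is not given here. Of the 34 segments 5 were covered by part-shared, 4 by DN-only and 2 by fully shared regions, with Trbv5 and Trbv12-1 counted more than once. The Tcra V and J-C parts, the D-J-C parts of Tcrb and of the delta chain, the gamma chain locus, the heavy chain locus Igh and Igl held 0 part-shared regions. Few regions there could qualify: both DN lists held 0 regions in the Tcra V part, the Tcra J-C part and Igl, 1 in the delta chain part, 2 each in the Tcrb D-J-C part and the gamma chain locus, and 3 in Igh. Both DP lists alone held 20 regions in the Tcra V part, 7 in the Tcra J-C part and 52 in Igh. The light chain locus Igk held 2 (chromosome 6, 67812351 to 67812900 with DP 1, and 68668351 to 68668900 with DP 2), 20840 and 1852 bp from the nearest segment. Igk also held 3 regions in all 4 lists and 4 DN-only regions. Over the genome 12.9% of the regions in both DN lists were part-shared, and so few regions per locus do not set a locus apart.

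**Figure D5:**
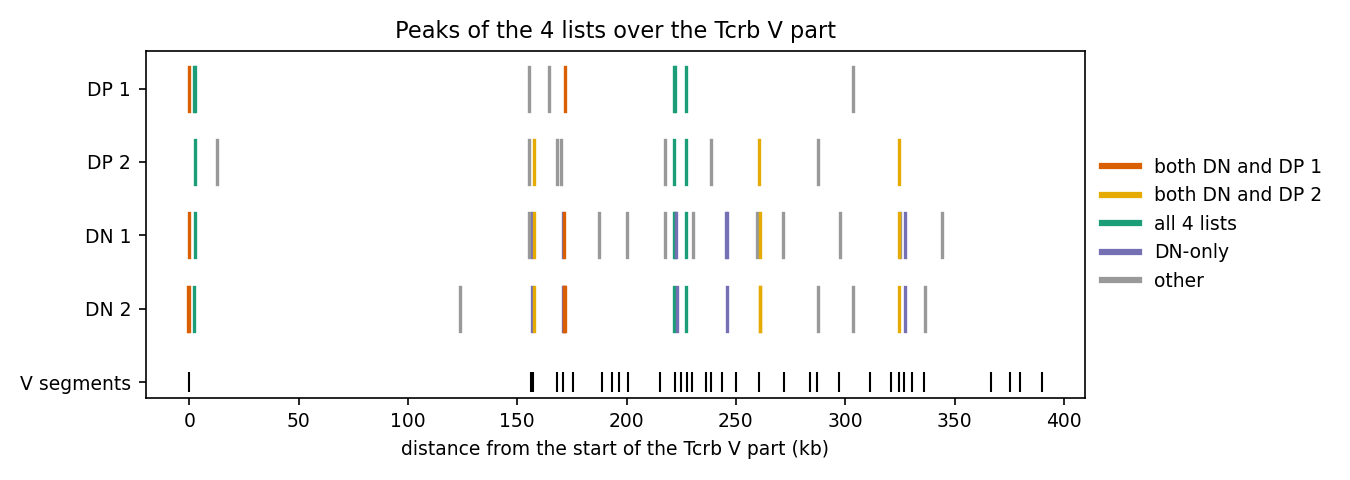
Peaks of each list (rows, ticks) over the Tcrb V part, in kb from its start (x axis), coloured by class of region, with the 34 V segments below. The 5 part-shared regions over segments appear as orange or yellow ticks in a single DP row and in both DN rows.

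Part-shared regions were spread thinly over genes. A region took the name of the closest protein-coding gene, by distance to either gene end and up to 100 kb, and 1210 of the 1577 had such a gene. They fell to 1079 of 21627 genes (4.99%): 320 genes (1.48%) had a DN/DP 1 and 804 (3.72%) a DN/DP 2 region. Of these genes 967 had 1 such region, 93 had 2 and 19 had 3, the most found. Both patterns occurred in 45 genes, which is 14.1% of the DN/DP 1 genes, beside the 3.72% of all genes with a DN/DP 2 region, and 5.60% of the DN/DP 2 genes, beside 1.48%. The genes were long, with a median of 53.5 kb for all 1079 and 151.1 kb for the 19, against 17.3 kb for all protein-coding genes and 61.2 kb for genes with a DN-only region. Of the 1079 genes, 51.2% also had a region in all 4 lists, 27.4% a DN-only region and 23.9% a region in both DP lists alone. Over all protein-coding genes these shares were 26.7%, 6.85% and 22.7%. The part of gene length in these shares, and in the 45 genes with both patterns, was not tested.

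The genes with 3 DN/DP 2 regions were Btbd3, Cdk5rap2, Fmn1, Fmn2, Hmcn1, Mef2c, Plcb4 and Slc2a13. Mef2c, a transcription factor of lymphoid progenitors and muscle, had 8 and 26 peaks in DP 1 and DP 2 and 20 and 12 in DN 1 and DN 2. Its best ranked part-shared region (chromosome 13, 83608751 to 83609800), inside the gene, had p-values of 6.57e-05 in DP 2, 7.95e-06 in DN 1 and 4.6e-05 in DN 2. Slc2a13, a myo-inositol transporter, had 0 and 13 peaks in DP 1 and DP 2 and 5 and 6 in DN 1 and DN 2, so DP 1 was the sole list without any peak there. The actin-nucleating formins Fmn1 and Fmn2 had 2 and 10, and 5 and 12 peaks in DP 1 and DP 2, against 7 and 9, and 5 and 9 in DN 1 and DN 2. Both formins had a DN/DP 2 region at a gene end (chromosome 2, 113327151 to 113328000, and chromosome 1, 174501501 to 174502350). Cdk5rap2, a centrosome protein, had 6 and 14 peaks in the DP lists and 8 and 8 in the DN lists, and all 3 of its part-shared regions lay inside the gene. Plcb4, a phospholipase C, had 7 and 22 against 8 and 9, Hmcn1, an extracellular matrix protein, 12 and 25 against 9 and 8, and Btbd3 4 and 14 against 9 and 6. DP 2 held more peaks than DP 1 in each of these 8 genes, which were chosen for peaks that DP 2 had and DP 1 lacked, and DP 2 is the longer list.

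Hjurp, the chaperone that loads the centromeric histone, was the only gene with 3 DN/DP 1 regions. Its peaks numbered 7 and 6 in DP 1 and DP 2 and 5 and 6 in DN 1 and DN 2, so the total did not set DP 2 apart. The region at its end, which also overlapped Mroh2a (chromosome 1, 88258801 to 88259750) had 0.000144 in DP 1 and the smallest p-value, 1e-12, in both DN lists, and a DP 2 peak lay 450 bp away. Genes with 2 DN/DP 1 regions included Adgrl2, an adhesion G protein-coupled receptor, Nt5e, which encodes the ectonucleotidase CD73, Rab38, a small GTPase, Lrrn3, Nek10, a protein kinase, Pdzph1 and 4930467E23Rik. Adgrl2, Nt5e, Rab38 and Lrrn3 had 1 DN/DP 2 region as well, and the regions of Lrrn3 lay inside Immp2l. The region at an end of Rab38 (chromosome 7, 88429951 to 88430800) had p-values of 0.000286 in DP 1, 2.91e-07 in DN 1 and 1e-12 in DN 2, and no DP 2 peak within 33350 bp. At Nt5e the region at a gene end (chromosome 9, 88327201 to 88327950) had 0.000487 in DP 1, which is the largest p-value of that list. Adck1 and Cobll1 had 1 DN/DP 1 and 2 DN/DP 2 regions each. At Adck1 regions of the 2 patterns lay side by side (chromosome 12, 88426851 to 88427500 with DP 2, and 88428601 to 88429250 with DP 1).

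Of 245 genes in 17 lists of thymocyte biology and of other cell types, 12 had a part-shared region (4.90%). With the rule as given this was close to the 4.99% of all protein-coding genes, but less so with a single DN list required (last section). Among 25 genes of the DN stage, 3 had one, all with DP 1, beside 1.48% of all protein-coding genes with a DN/DP 1 region. These were Il7r, described above, Bcl11a, a transcription factor of lymphoid progenitors (chromosome 11, 24074101 to 24074650), and Lmo2, a LIM-only progenitor protein (chromosome 2, 103945351 to 103946100). Bcl11a had 4 and 10 peaks in DP 1 and DP 2 and 7 and 6 in DN 1 and DN 2, Il7r had 1 and 0 against 2 and 2, and Lmo2 had 1 and 2 against 3 and 2. Il7r had no region in all 4 lists, in both DN lists alone or in both DP lists alone. Among 18 Notch pathway genes, the ligand gene Jag1 had a DN/DP 1 region 631 bp from its end (chromosome 2, 137116551 to 137117750). Rbpj, the DNA-binding partner of Notch in the nucleus, had a DN/DP 2 region (chromosome 5, 53490601 to 53491100), 64928 bp from the gene.

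Among 30 DP-stage genes, 2 had a part-shared region, both with DP 2, beside 3.72% of all protein-coding genes with a DN/DP 2 region. Arpp21, a cAMP-regulated phosphoprotein gene, had it inside the gene (chromosome 9, 112224901 to 112225450). Rgs2, a regulator of G protein signalling, had it 57712 bp away (chromosome 1, 143941351 to 143941900). So few genes of the DN-stage and DP-stage lists do not tie a stage to either DP list. Ccnd2, cyclin D2, was the sole one of 20 cell cycle genes, with a DN/DP 1 region 438 bp from its end (chromosome 6, 127152351 to 127152900). The lists of 20 pan-T genes, 21 T cell receptor signalling genes, 12 recombination genes, 22 ribosomal protein genes and 12 housekeeping genes had 0 members with a part-shared region. Against the 4.99% of all protein-coding genes, lists of this length do not show a difference by a 0. Of these lists, 6, 10, 10, 7 and 9 genes had a region in all 4 lists. Il7r alone accounts for the single hit among 16 cytokine and chemokine receptor genes and among 12 genes of mature single-positive cells.

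Few markers of other cell types had a part-shared region, and lists this short show neither likeness to nor difference from the 4.99% of all protein-coding genes. Of 12 B cell markers, Pax5, the B lineage factor, and Bank1, a B cell scaffold, had a DN/DP 2 region each, both inside the gene (chromosome 4, 44704201 to 44704850, and chromosome 3, 136086351 to 136086850). Pax5 had 2 and 5 peaks in DP 1 and DP 2 and 1 and 1 in DN 1 and DN 2. Cebpa was the sole one of 14 myeloid markers, and Cdh5, the cadherin of blood vessel walls, the sole one of 12 stromal and epithelial markers. The 12 natural killer and innate lymphoid, 9 gamma-delta and 10 erythroid markers had 0. Whether other cells contributed to these peaks was not tested.

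Genes commonly used to define the stages had 0 part-shared regions, but with 4.99% of all protein-coding genes holding one, a 0 in so short a list says nothing about these genes. They were the coreceptors Cd4, Cd8a and Cd8b1, the recombinase genes Rag1 and Rag2, the Notch pathway genes Notch1, Notch3 and Hes1, Il2ra, Ptcra and Cd3e, and the transcription factors Tcf7, Gata3, Runx1, Lef1 and Bcl11b. Gata3, a T lineage factor, had 7 and 11 peaks in DP 1 and DP 2 and 8 and 4 in DN 1 and DN 2, and 3 of its regions were in all 4 lists.

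The best ranked DN/DP 2 region lay inside Zfp976 (chromosome 7, 42642301 to 42643150), with p-values of 3.64e-05 in DP 2 and 1e-12 in both DN lists. It was followed by regions inside Pak7, a p21-activated kinase (chromosome 2, 136148751 to 136149900), at B3galt1, near Epha4, an ephrin receptor (chromosome 1, 77515651 to 77516750), and inside Abcd2, a peroxisomal transporter (chromosome 15, 91167901 to 91168700). In these 5 regions the DN percentiles were between 1.1 and 5.48 and the DP 2 percentiles between 13.2 and 19.9. The best ranked DN/DP 1 region (chromosome 12, 26524701 to 26525500) was 45264 bp from Cmpk2, a nucleotide kinase, with 3.47e-05 in DP 1, 2.27e-06 in DN 1 and 3.03e-07 in DN 2, and a DP 2 peak lay 650 bp away. The next lay near Olfr822, an olfactory receptor gene (chromosome 10, 130092701 to 130093500), inside Krr1, a ribosome assembly factor (chromosome 10, 111977451 to 111978050), and at the end of Iqsec3 (chromosome 6, 121472901 to 121473550). The fifth had no gene within 100 kb (chromosome 1, 143319401 to 143320150).

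A further part-shared region lay within 10 kb of 67 of the 1577 (4.25%), a DN-only region within 10 kb of 5.52%, a region of both DP lists alone within 10 kb of 6.28% and a fully shared region within 10 kb of 11.9%. For DN-only regions the shares were 3.22%, 6.47%, 3.40% and 7.40% in the same order. For fully shared regions they were 2.70%, 2.67%, 12.5% and 15.4%. The classes that could lie near held 1577, 2703, 8003 and 7951 regions, and the part of class size in these shares was not tested. By chromosome the part-shared regions made up 8.28% (chromosome 9) to 16.1% (chromosome 15) of the regions in both DN lists. These are counts over unequal numbers of regions, 459 and 384 for the 2 chromosomes named.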

How the data were processed

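The submitters' processing notes name the build mm10 and the tools Bowtie2 and Picard, without version or role. The deposited lists, 1 per sample, carry PeakDEck in their names and give a p-value per peak, the authors' own value, used here only to rank peaks within a list. The sources used here do not give filters, duplicate handling or any shift of insertion sites. Peak positions fall on 50 bp steps, and the narrowest peak is 300 bp. From 29.1 to 44.2% of a list's peaks tie at its largest p-value, and ties took their mean rank. Peaks with the same start and end in a pair of lists came to at most 6.25% of the shorter.

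Peaks on chromosomes 1 to 19 and X were merged where they shared 1 bp; from 13 to 22 peaks per list on Y and the mitochondrial genome were left out. Positions count from 1. Genes, promoters and miRNAs came from RefSeq tables of GRCm38.p6, and all 245 list genes matched. Members and lists were chosen with earlier results of these data known. The rule for names took the 8 genes with most regions per pattern and over both (ties by symbol), up to 4 genes per list, fixed stage genes (1 of them is not reported here) and receptor loci, the 5 best-ranked and the 3 nearest and farthest regions, and the 4 best-ranked promoters per pattern. The Il7r and Cebpa promoters and the miRNA were added after their values were seen. The longer NRF1 and GFY motifs were left out after their matches were seen, since their letters are not printed here. Merging was tested on simulated lists, and gene assignment on a sample of the real merged regions against a direct search. Alternatives changed overlap, list length, gene-end window, gene assignment, ties, promoter overlap and the DN lists required. Versions were Python 3.11.15 with pandas 2.3.3, numpy 2.4.6, matplotlib 3.10.9 and scipy 1.17.1.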

Additional observations from a re-analysis of the deposited data

How the results depend on the processing

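Counts of part-shared regions stayed within 1.5 times the reported ones with a 50% overlap, with peaks within 250 bp joined, with a position common to 3 lists and with every list cut to the shortest, but the top 50% of each list left 153 DN/DP 1 regions. Of the reported DN/DP 1 and DN/DP 2 regions 94.8% and 95.1% kept their pattern with a 50% overlap, 83.0% and 61.1% with every list cut to the shortest, and 21.9% and 44.9% in the top 50%. Requiring a single DN list, which by construction admits more regions, gave 732 to 1261 DN/DP 1, 2060 to 2953 DN/DP 2 and 2792 to 4214 regions in all, of which 10.1 to 12.6%, 9.61 to 11.2% and 9.74 to 11.6% lay at gene ends. The gene-end share was 9.43, 9.71 and 9.64% with a window of 500 bp and 18.4, 17.8 and 17.9% with 2500 bp. In the top 50% it was 14.5% for DN/DP 2 regions and 14.1% in all. List genes with a part-shared region numbered 23 of 245 without DN 1 and 51 without DN 2, against 12 reported. Over all 21627 protein-coding genes the numbers were 1676 and 2711, against 1079 reported. In both settings the share was higher among list genes, most so without DN 2, unlike the near-equal reported shares. List genes with a DN/DP 1 region fell to 2 in the top 50%, against 6 reported, and all genes with such a region to 124, against 320. The cause was not tested beyond the settings' own construction. Leaving out a DP list was not run, since the rule needs both. No paired analysis was possible because no result comes from a test. Depth is unknown, so presence near the calling limit cannot be graded.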
